A study of Mus musculus with 4 samples.

Results

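The genes described here are 47 mouse genes of mitosis and the G2/M transition, covering mitotic kinases, the kinetochore, the spindle, cytokinesis and the mitotic chromosome. They were picked by symbol from a fixed list of names, and all 47 were found among the 5807 genes of the deposited table. That table lists the genes that passed the study's own cuts, on P and on a 2-fold difference, between eosinophils of 2 tissues. Being in it thus depended on the same contrast. Directions and counts for these genes are therefore descriptions, without a test.

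A dividing cell builds up this set of transcripts in G2, uses the proteins to condense chromosomes, attach them to the spindle and split, and degrades many of them at the end of mitosis. In G0 and early G1 the MuvB core, bound to a pocket protein, keeps the genes silent, and in G2 the same core works with B-Myb and FoxM1 to switch them on. Eosinophils divide as precursors in the bone marrow and leave it as mature cells that no longer divide.

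Eosinophils came from wild-type mice of 6 to 8 weeks injected in the pleural cavity with LLC cells (Lewis lung carcinoma, of mouse origin), and were collected 2 days later. There were 2 libraries of bone marrow eosinophils and 2 of pleural cavity eosinophils, the latter carrying the label MPE (malignant pleural effusion). Both tissues are thus labelled as coming from LLC-injected wild-type mice, although the study's text also calls the bone marrow cells naive. Bone marrow cells were enriched with F4/80 and sorted on CD45, Siglec-F and high side scatter, whereas the pleural gate further required CD11b and F4/80 and left out CD11c-positive and Gr1-high cells. Siglecf, which marks eosinophils, had 7105.5 mean reads in bone marrow and 21371 in pleural cavity eosinophils, and the eotaxin receptor gene Ccr3 had 17177.5 and 67556.5. The granule protein genes Prg2, Epx and Prg3 differed the other way, by 508-fold, 552-fold and 353-fold, with 555403.5, 139061.5 and 38176.5 mean reads in bone marrow and 1482, 341.5 and 146.5 in pleural cavity eosinophils. Alox15, a lipoxygenase gene of eosinophils, was 3.59-fold lower.

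Each value below is the mean of the estimated reads over the 2 libraries of a tissue, as deposited. No value per library was analysed here, so neither a spread between replicates nor a test could be given, and depth per library is unknown. Reads on the 5807 listed genes summed to 11762543 in bone marrow and 15947438 in pleural cavity eosinophils. Ratios were scaled by these sums and are given as pleural cavity over bone marrow on the log2 scale, or as a fold. A lower level in these sorted cells cannot be split into fewer cells that carry a transcript and less of it per cell.

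All 47 genes were lower in pleural cavity eosinophils, where 57.5% of all listed genes were lower. The study's own comparison reported a larger share of its genes as lower, and only genes past 2-fold. Genes that lie within 2-fold here can therefore have another fold, or another direction, there. At least 2-fold lower were 44 of the 47, against a background of 50.5% of listed genes, and at least 10-fold lower were 36, against 19.5%. The median log2 ratio was -4.68, a 25.7-fold lower level, with quartiles of -5.58 and -3.53. Over all listed genes the median was -1.02, with quartiles of -2.90 and 0.68. Levels in bone marrow eosinophils ran from 163 mean reads for Psrc1 through a median of 1266 to 21262.5 for Hmgb2, and 25 of the 47 genes had at least 1000. In pleural cavity eosinophils the lowest was 0, the median 62.5 and the highest 6660.5, and 32 genes stayed under 100 mean reads. Summed, the 47 genes took 7738 of 1000000 listed reads in bone marrow and 1032 in pleural cavity eosinophils, 7.50-fold less. The sum differed less than the median gene, since several of the most abundant members had ratios closer to 0. The 8 members with at least 500 mean reads in the pleural cavity held 80.8% of the pleural sum and 41.5% of the marrow sum, and Hmgb2 alone held 40.5% and 23.4%.

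**Figure D1:**
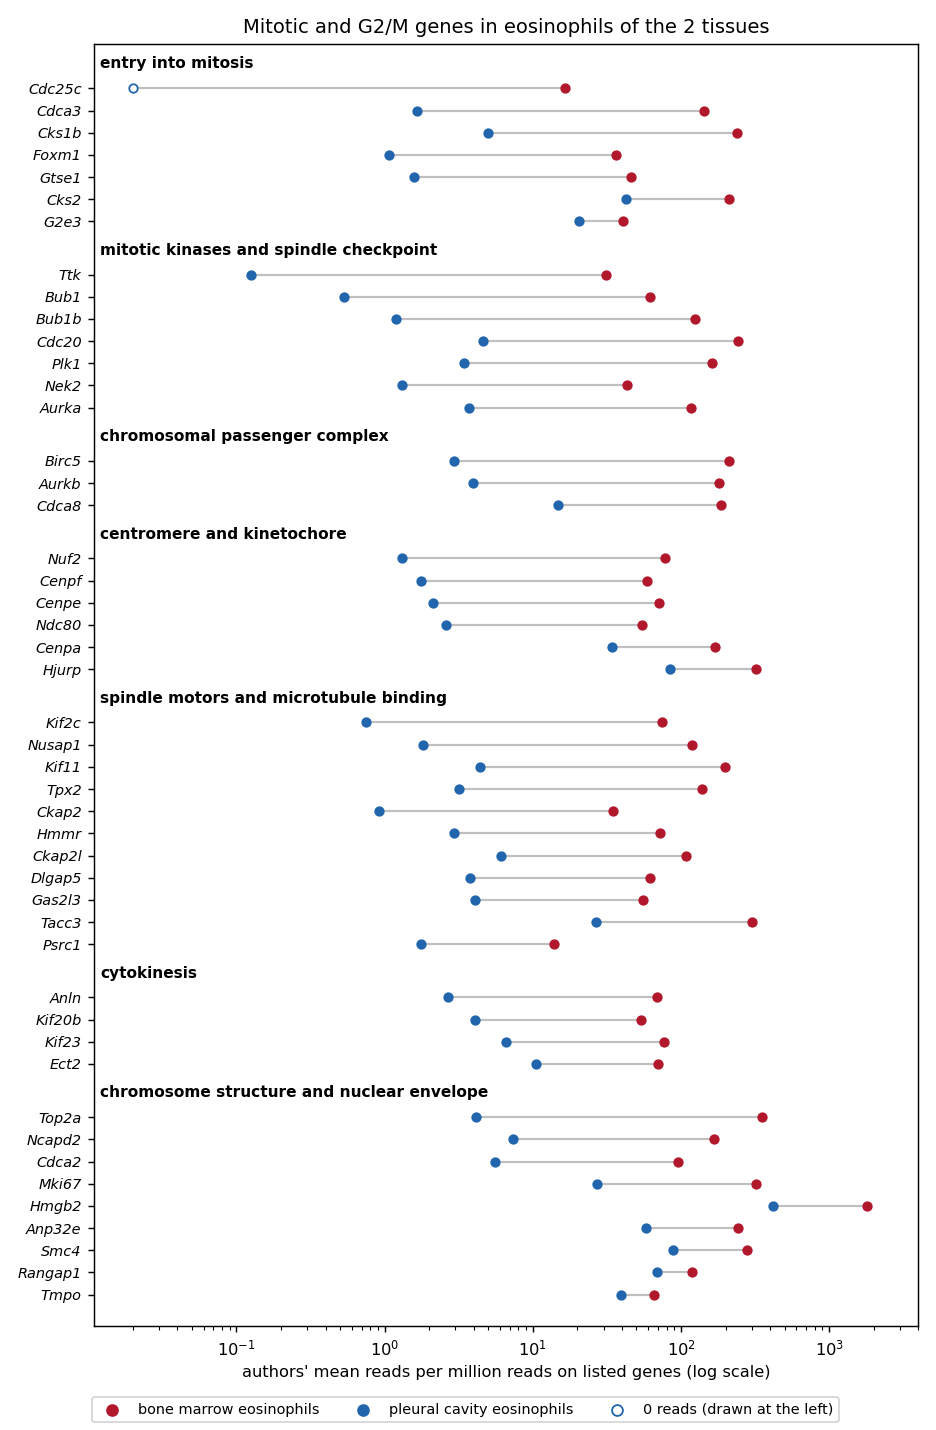
Mean reads of the 47 mitotic and G2/M genes per 1000000 reads on listed genes (log axis) in bone marrow (red) and pleural cavity (blue) eosinophils, grouped by role. Every blue point lies left of its red point, and the open point is Cdc25c, with 0 pleural reads and no place on a log axis.

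Many genes of this set are known to share a promoter design, a cell cycle genes homology region (CHR), to which the MuvB core binds, with CCAAT boxes, to which NF-Y binds, upstream of it. The 250 bases before the start were read from the RefSeq promoter table (GRCm38.p6), which held 40 of the 47 genes, 4 with a pair of starts. It held no entry for Aurkb, Cdc25c, Cdca2, Dlgap5, Foxm1, Smc4 or Tpx2. The letters searched were TTTGAA and TTCGAA for the CHR and CCAAT for the box, on both strands, and no match of one overlapped a match of the other in these promoters. A CCAAT box was found before 30 of the 40 genes, 75%, against 42.5% of the 4673 listed genes with a promoter and 37.5% of all 27025 genes in the table. At least 2 boxes in the same promoter were found for 52.5%, against 15.9% and 11.5%. CHR letters stood before 16 of the 40, 40%, against 18% and 19.6%, and both kinds together before 14, 35%, against 7.51% and 7.0%. Of the 80 other listed mitotic genes described below, 65 had a promoter. CCAAT boxes stood before 66.2% of these 65, at least 2 boxes before 38.5%, CHR letters before 43.1% and both kinds before 32.3%. Of the 37 listed S phase genes, which are switched on earlier in the cycle, 27 had a promoter. CCAAT boxes stood before 70.4% of these 27, at least 2 boxes before 40.7%, CHR letters before 25.9% and both kinds before 18.5%. At least 1 of the kinds was found before 77.5% of the 40 members and 51.6% of listed genes. The shares were 76.9% for the other mitotic genes and 77.8% for the S phase genes. With the window cut to 100 bases, CHR letters stood before 10 of the 40 members, 25%, against 6.42% of listed genes. Both kinds then stood before 8, 20%, against 2.03%. The nearest box ended a median of 30 bases before the start, and the nearest CHR letters 25 bases. Neither kind was found before 9 members, which were Anln, Birc5, G2e3, Kif20b, Ndc80, Nuf2, Nusap1, Rangap1 and Tacc3. Such a match shows letters in a window and not a bound site.

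**Figure D2:**
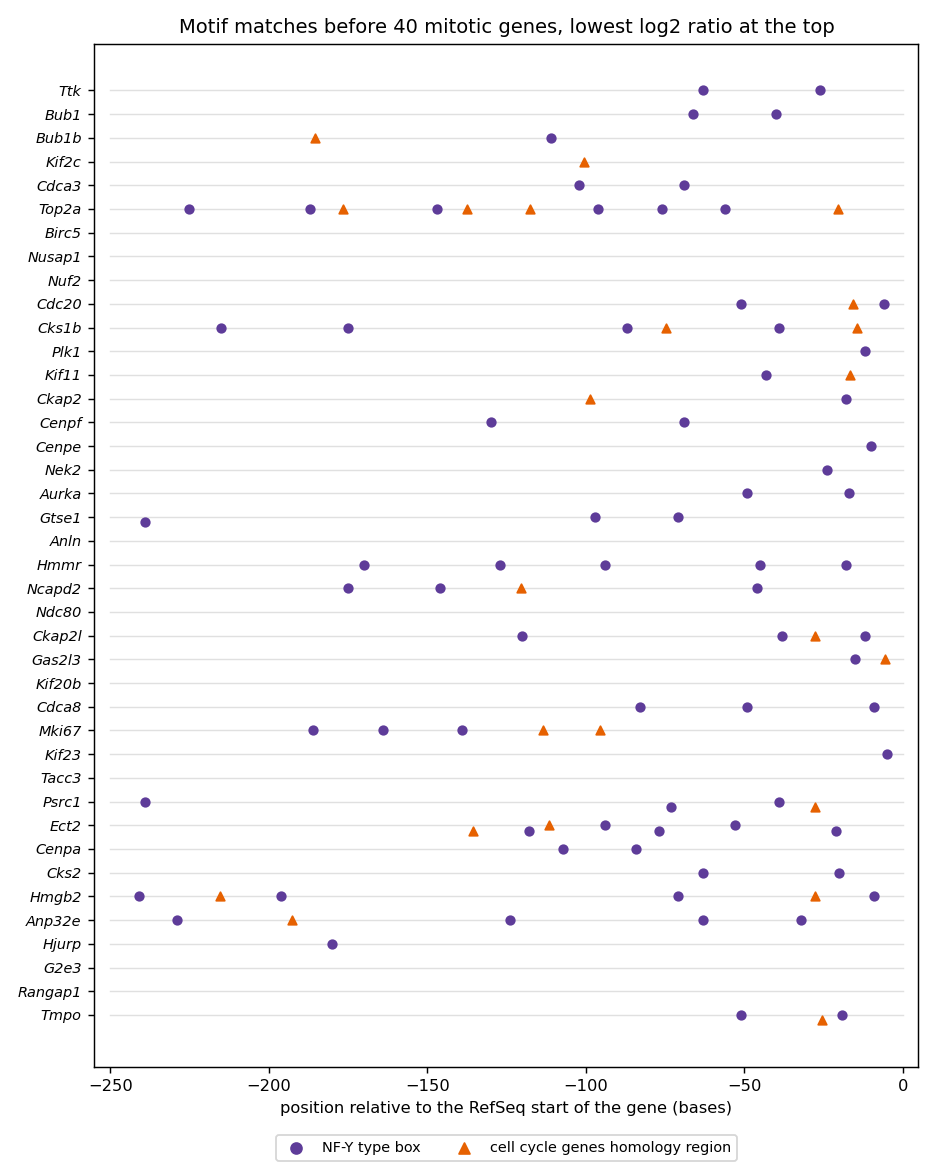
Positions of NF-Y type boxes (CCAAT on either strand, circles) and CHR letters (triangles) within 250 bases before the RefSeq start of 40 members, ordered by log2 ratio with the lowest at the top; points set slightly under a row belong to a further start of that gene. Top2a carries 6 boxes and 4 CHR matches, and 9 rows are empty.

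The promoters below belong to the 5 members with the lowest log2 ratios among those that held both kinds of letters and had at least 100 mean reads in bone marrow eosinophils. They are printed 5′ to 3′ on the strand of the gene and end at the last base before its start, with CHR and CCAAT letters on either strand in capitals. No order of the letters was required. Bub1b (chr2:118597961-118598210, plus strand) holds 1 CHR and 1 box, here with the CHR upstream of the box. Top2a (chr11:99024190-99024439, minus strand) holds 4 and 6. Cdc20 (chr4:118437344-118437593, minus strand) holds 1 and 2, with a box on each side of the CHR close to the start. Cks1b (chr3:89418292-89418541, minus strand) holds 2 and 4, and Kif11 (chr19:37376132-37376381, plus strand) holds 1 and 1.
Bub1b: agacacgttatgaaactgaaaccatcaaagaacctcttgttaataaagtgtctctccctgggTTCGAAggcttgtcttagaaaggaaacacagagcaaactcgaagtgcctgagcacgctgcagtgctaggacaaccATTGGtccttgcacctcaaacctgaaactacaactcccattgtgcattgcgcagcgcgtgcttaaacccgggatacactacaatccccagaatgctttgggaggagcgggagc
Top2a: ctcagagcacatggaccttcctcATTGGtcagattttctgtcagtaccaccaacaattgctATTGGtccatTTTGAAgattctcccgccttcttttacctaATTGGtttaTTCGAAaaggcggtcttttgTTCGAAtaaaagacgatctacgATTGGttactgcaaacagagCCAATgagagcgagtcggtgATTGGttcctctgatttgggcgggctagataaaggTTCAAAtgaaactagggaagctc
Cdc20: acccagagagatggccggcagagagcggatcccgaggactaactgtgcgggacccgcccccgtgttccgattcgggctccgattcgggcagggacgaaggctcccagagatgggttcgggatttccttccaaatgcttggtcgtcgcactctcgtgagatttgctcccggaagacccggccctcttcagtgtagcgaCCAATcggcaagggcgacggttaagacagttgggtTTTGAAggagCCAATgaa
Cks1b: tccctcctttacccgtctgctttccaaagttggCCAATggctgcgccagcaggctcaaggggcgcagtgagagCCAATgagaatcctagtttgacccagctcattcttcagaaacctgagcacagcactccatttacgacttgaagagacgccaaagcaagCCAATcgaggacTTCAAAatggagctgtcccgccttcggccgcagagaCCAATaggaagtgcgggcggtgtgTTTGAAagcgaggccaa
Kif11: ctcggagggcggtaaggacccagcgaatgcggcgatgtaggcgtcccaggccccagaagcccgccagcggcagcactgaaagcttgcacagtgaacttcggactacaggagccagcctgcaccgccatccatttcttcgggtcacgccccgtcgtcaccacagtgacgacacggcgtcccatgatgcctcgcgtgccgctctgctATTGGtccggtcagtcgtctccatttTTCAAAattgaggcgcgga

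Of the genes for entry into mitosis, 6 of 7 were at least 2-fold lower and the median log2 ratio was -5.09. Foxm1, the transcription factor that drives G2/M genes, had 428 mean reads in bone marrow and 17 in pleural cavity eosinophils, 34.1-fold lower. Cdc25c, the phosphatase that activates CDK1, had 192.5 and 0 mean reads, which is at least 87.0-fold lower when 3 mean reads per library are taken as the floor. The lowest measured ratio of this group was that of Cdca3, an F-box-like protein that promotes mitotic entry, with 1681 against 26.5 mean reads and a log2 ratio of -6.43. Gtse1, a microtubule-associated protein made in G2, had 537.5 against 25 mean reads. Cks1b and Cks2 encode small, closely related subunits that bind cyclin-dependent kinases, and their ratios differed by over 3 log2 units. Cks1b had 2827.5 and 79 mean reads, 48.5-fold lower, while Cks2 had 2467.5 and 679.5, 4.92-fold lower. G2e3, a ubiquitin ligase named for its expression in G2, had the ratio closest to 0 in this group, with 480 against 327.5 mean reads and a log2 ratio of -0.99.

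The mitotic kinases and the spindle checkpoint were the group with the lowest median, -5.73. At least 10-fold lower were 7 of 7 members, against 19.5% of listed genes. Plk1, which acts from mitotic entry to cytokinesis, had 1903 mean reads in bone marrow and 55 in pleural cavity eosinophils. Aurka, the kinase of centrosomes and spindle poles, had 1383 and 59.2, and Nek2, which helps separate centrosomes, 509.5 and 21. These 3 kinases were 46.9-fold, 31.7-fold and 32.9-fold lower, in that order. The checkpoint kinases that hold back anaphase were lower still. Bub1 had 729.5 against 8.5 mean reads, 116-fold lower, and Bub1b, which encodes BubR1, 1455 against 19, 104-fold lower. For Ttk, the kinase at the top of the checkpoint, 366.5 mean reads stood against 2, that is 4 reads over both pleural libraries. Its ratio of 248-fold has an exact 95% interval of 96.6 to 914 that covers counting error only. Cdc20, the activator of the anaphase-promoting complex that the checkpoint restrains, had 2857 and 73 mean reads, 53.1-fold lower.

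In the chromosomal passenger complex the catalytic kinase and its small partner had similar ratios and the others lay higher. Aurkb had 2108.5 against 62.5 mean reads, 45.7-fold lower, and Birc5, which encodes survivin, 2475 against 46.6, 72.0-fold lower. Cdca8, which encodes borealin, had 2201 against 237.5, 12.6-fold lower. Incenp, the scaffold of the complex, which is not among the 47 genes and was named after its values were seen, had 2083.5 against 378.5 mean reads, a log2 ratio of -2.90.

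Centromere and kinetochore genes separated into outer kinetochore proteins and the centromeric histone with its chaperone. Nuf2 had 916 mean reads in bone marrow and 21 in pleural cavity eosinophils, and its partner Ndc80, with which it binds microtubules, had 641 and 41.5. The log2 ratios of Nuf2 and Ndc80 were -5.89 and -4.39. Cenpe, a kinesin that moves chromosomes to the spindle equator, had 831.5 and 34 mean reads, and Cenpf, a large outer kinetochore protein, 689 and 28.0. Both were about equally low, with log2 ratios of -5.05 and -5.06. Cenpa, the histone H3 variant that marks centromeres, kept more of its reads, 542 of 1990.5, and was 4.98-fold lower. Hjurp, the chaperone that deposits it, had 3768 against 1351 mean reads and was 3.78-fold lower, the smallest fold of the 6.

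Spindle motors and microtubule-binding proteins were at least 10-fold lower in 10 of 11 cases, with a median log2 ratio of -4.64. Kif2c, a kinesin that takes microtubules apart at kinetochores, had the lowest ratio, with 881 against 12 mean reads, 99.5-fold lower. Nusap1, which bundles spindle microtubules near chromosomes, followed with 1388.5 against 29, 64.9-fold lower. Kif11, the motor that pushes spindle poles apart, had 2316 against 70.3, and Tpx2, which activates Aurora A on the spindle, 1630 against 50.5. Kif11 and Tpx2 were 44.7-fold and 43.8-fold lower. Ckap2 and Ckap2l, both spindle-associated, had 406.5 against 14.5 and 1266 against 96.5 mean reads. Hmmr and Dlgap5, which help assemble and stabilise spindle fibres, had 855 against 46.6 and 721.5 against 60. Gas2l3, which links actin and microtubules, had 652 against 65.0, and these 5 genes lay between 13.6-fold and 38.0-fold lower. Tacc3, which cross-links microtubules of the kinetochore fibre, was the most abundant of the group in bone marrow eosinophils by reads per kilobase of transcript. It had 3567.5 against 423 mean reads, 11.4-fold lower. Psrc1 had the fewest marrow reads of all 47 genes, 163 against 28, and a log2 ratio of -2.98.

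The 4 cytokinesis genes were at least 2-fold lower and 3 of them at least 10-fold. Anln, the scaffold of the contractile ring, had 815 against 43 mean reads, 25.7-fold lower, which was the median of the whole set. Kif20b and Kif23, kinesins of the midzone and midbody, had 635.5 against 64.5 and 906 against 105.5 mean reads, 13.4-fold and 11.6-fold lower. Ect2, the exchange factor that activates RhoA at the cleavage site, had 819 against 167, 6.65-fold lower.

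The smallest folds were found among genes of chromosome structure and the nuclear envelope, whose median log2 ratio was -2.11, and 4 of 9 were at least 10-fold lower. Top2a, the topoisomerase that untangles sister chromatids, had 4162.5 mean reads in bone marrow and 66 in pleural cavity eosinophils, 85.5-fold lower. Ncapd2, a condensin I subunit, had 1977.5 against 118, and Cdca2, which brings a phosphatase to chromatin at anaphase, 1125.5 against 88. Mki67, whose product Ki-67 coats mitotic chromosomes and is a common marker of proliferation, had 3767 against 429 mean reads, 11.9-fold lower. The other 5 were less than 5-fold lower. Hmgb2, a DNA-bending chromatin protein, had 21262.5 against 6660.5 mean reads, 4.33-fold lower. Anp32e, a chaperone that removes the histone variant H2A.Z, had 2835 against 929.5, 4.14-fold lower. Smc4, the ATPase core of condensin, had 3263 against 1411, 3.14-fold lower. Rangap1, which activates the GTPase activity of Ran in nuclear transport, had 1391 against 1092, and Tmpo, a lamina-associated protein, 775 against 630.5. Their log2 ratios of -0.79 and -0.74 were closer to 0 than the median of all listed genes. Scaled by the median ratio of abundant listed genes, they were -1.23 and -1.18.

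**Figure D3:**
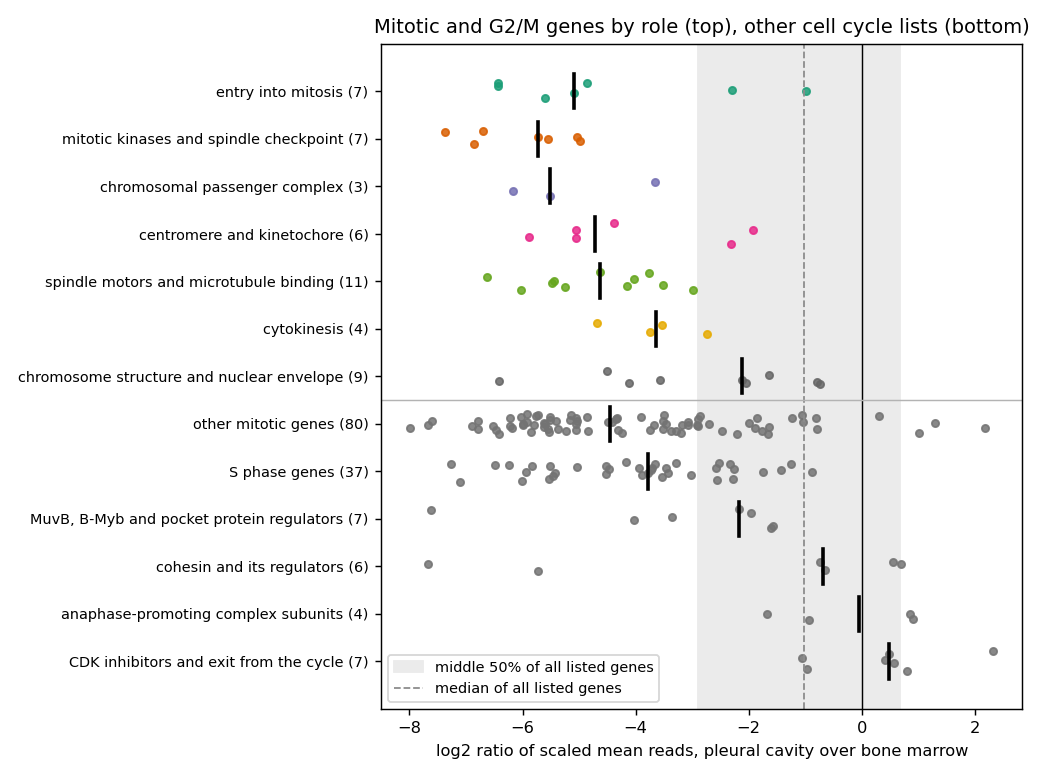
Log2 ratio of scaled mean reads, pleural cavity over bone marrow, for each of the 47 genes by role (top) and for other cell cycle lists (bottom), with means of at most 3 reads set to 3; black bars are medians, the grey band is the middle 50% of all listed genes. The 7 kinase and checkpoint genes all lie at -4.99 or lower, whereas the chromosome structure group spans -6.42 to -0.74.

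Per length of the longest transcript, the order of the genes differed between the tissues. In bone marrow eosinophils Hmgb2, with 8091 reads per kilobase, was followed by Cks2 at 3566, Cks1b at 3330, Cdc20 at 1593 and Tacc3 at 1231. In pleural cavity eosinophils, after scaling, Hmgb2 at 1869 and Cks2 at 724 still led, but Rangap1 at 266, Smc4 at 241 and Anp32e at 209 came next. Cks1b held place 10 there, Cdc20 place 15 and Top2a, which held place 10 in bone marrow, place 28. With no spread between libraries, neighbours in this order cannot be told apart.

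**Figure D4:**
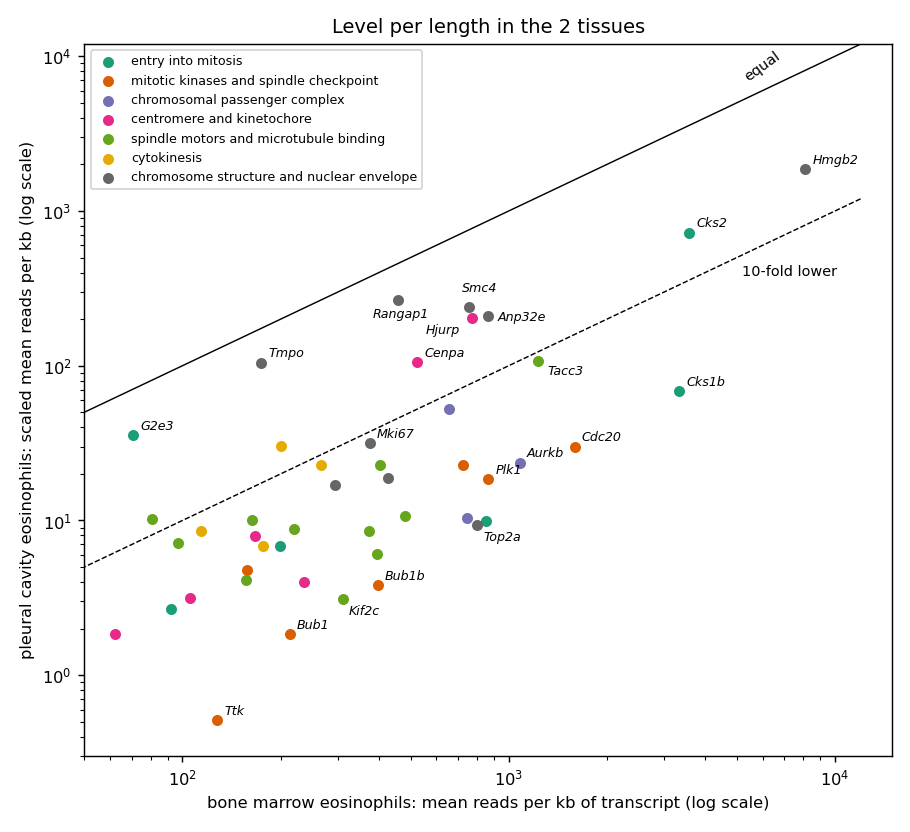
Mean reads per kilobase of the longest GENCODE M21 transcript in bone marrow (x axis) and, scaled, in pleural cavity eosinophils (y axis), both log axes, for 46 members coloured by role; Cdc25c, at 0 pleural reads, is left out. Most points lie under the dashed line of a 10-fold lower level, and Hmgb2, Cks2, Rangap1, Smc4, Hjurp, Anp32e, Cenpa, Tmpo and G2e3 lie above it with Ect2 and Psrc1.

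Partners within a complex did not share 1 ratio, as a comparison with subunits outside the 47 genes, named after their values were seen, shows. In condensin I the log2 ratios were -5.77 for Ncapg, -5.05 for Ncaph, -4.51 for Ncapd2, -3.20 for Smc2 and -1.65 for Smc4. The core ATPases Smc2 and Smc4 thus lay highest. In the NDC80 complex they were -5.89 for Nuf2, -5.23 for Spc25, -4.39 for Ndc80 and -3.19 for Spc24. In centralspindlin they were -3.54 for Kif23 and -1.05 for Racgap1. These differences were not tested.

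A wider list of 92 other mitotic genes, among them cyclins, condensins and further kinesins, had 80 listed genes, 76 of them lower, 74 at least 2-fold and 53 at least 10-fold, and a median log2 ratio of -4.45. Among its most abundant genes in bone marrow, Stmn1, a microtubule-destabilising protein, had 6504 against 145.5 mean reads, and Tubb4b, a tubulin, 6941.5 against 2784. The other 4 were higher in pleural cavity eosinophils, as were 42.5% of all listed genes. Pttg1, which encodes securin, the inhibitor of separase, had 576 mean reads in bone marrow and 3554 in pleural cavity eosinophils, 4.55-fold higher. Jpt1 had 5568.5 and 18540, 2.46-fold higher, and Wee1, the kinase that holds CDK1 inactive, 243.5 and 668.5, 2.02-fold higher. Lbr, the lamin B receptor, had 11515.5 and 19391 and a log2 ratio of 0.31, which turned to -0.13 when the scaling used the median ratio of abundant listed genes. Of 45 S phase genes 37 were listed and all 37 were lower, 36 at least 2-fold and 25 at least 10-fold, with a median log2 ratio of -3.78. Among them Mcm6, Mcm3, Rrm1 and Rrm2, for the replicative helicase and for ribonucleotide reductase, had log2 ratios of -2.57, -3.72, -3.78 and -5.84. Of 20 genes for the MuvB core, B-Myb, NF-Y, pocket proteins and E2F factors 7 were listed, which were Tfdp1, E2f2, Rbl1, E2f7, Mybl2, Tfdp2 and E2f3, with no MuvB core or NF-Y subunit among them, and the last 3 were named after their values were seen. The 7 were at least 2-fold lower, as were 50.5% of all listed genes, and Mybl2, which encodes B-Myb, had 386 against 51 mean reads. Tfdp1, E2f2 and Rbl1 had log2 ratios of -1.60, -4.02 and -2.17, and E2f7 had 432.5 against 2 mean reads.

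Markers of several other marrow cells were also lower in pleural cavity eosinophils. Of 10 neutrophil markers 10 were listed and lower, and their summed reads per 1000000 listed reads were 90071 in bone marrow and 2257 in pleural cavity eosinophils. Retnlg alone made up 2127 of the pleural sum, and without it the sums were 77572 and 130. Granulocyte precursor markers, such as Mpo and Elane, had 7 of 8 listed and lower, with sums of 27972 and 66.9, and 6 of 6 basophil and mast cell markers were lower, with sums of 968 and 10.9. Of 8 erythroid markers 3 were listed and lower, with sums of 67.7 and 0.85. Of the 2 listed T and NK cell markers out of 6, both were lower, with sums of 897 and 9.03, of which Nkg7 made up 887 and 7.02. Macrophage and monocyte markers went the other way in 4 of 5 listed genes, with sums of 3359 and 6435, of which Adgre1, the gene of the sort marker F4/80, made up 970 and 4635, and without it the sums were 2390 and 1800. Ly6c2, the lower gene, held 1879 and 38.2 of those sums. Csf1r and C1qb were 3.83-fold and 3.42-fold higher, and C1qa, named after its values were seen, 1.89-fold higher. Epithelial and stromal markers summed to 55.7 and 121 over 3 of 5 listed genes, 1 of them higher. Krt18, the higher gene, made up 44.0 and 120 of those sums, and Col1a1 and Col3a1 were lower. B cell markers, 2 of 5 listed with 1 higher, summed to 14.3 and 23.1. Eosinophil markers had 6 of 7 listed, 2 higher and 4 lower, with sums of 71100 and 7578. The part that any of these cells had in the result for the mitotic genes was not tested, and the gates, of which the pleural gate alone left out Gr1-high cells, cannot be told apart from tissue.

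**Figure D5:**
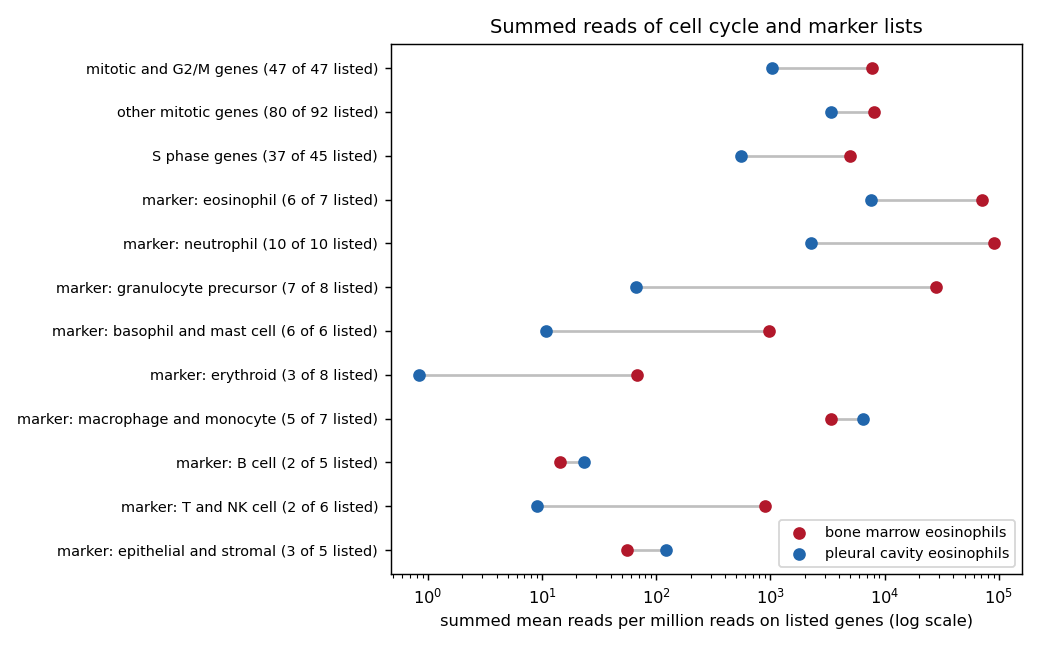
Summed mean reads per 1000000 reads on listed genes (log axis) of cell cycle lists and of marker lists in bone marrow (red) and pleural cavity (blue) eosinophils, with the number of listed genes of each list. The 47 mitotic and G2/M genes had 7738 and 1032, granulocyte precursor markers 27972 and 66.9, and macrophage and monocyte markers 3359 and 6435.

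Mean reads that were neither whole nor at 0.5, as arise where RSEM assigns a read in part to several genes, were seen for 10 of the 47 genes, 21.3% against 25.8% of all listed genes. These were Anln, Aurka, Birc5, Cenpf, Gas2l3, Hjurp, Hmmr, Kif11, Rangap1 and Tpx2, whose levels are less certain. Exons of 7 members shared bases with another protein-coding gene of GENCODE M21, from 53 bases for Cdc20 with Elovl1 to 623 for Cdc25c with Gm3550. The others were Cdca8, Foxm1, Nusap1, Rangap1 and Tacc3, and no source used here states that the libraries kept strand, so reads of such pairs may mix.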

How the data were processed

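Eosinophils of bone marrow and pleural cavity were sequenced as paired reads of 100 bp, with 2 libraries per tissue grouped by their titles. The authors trimmed reads with SOAPnuke, aligned them to GRCm38 with HISAT2 2.1.0, mapped them to genes with Bowtie2 2.2.5, estimated reads with RSEM 1.2.8 and compared tissues with DESeq2. The deposited values used are expected counts per gene, given as the authors' mean for each tissue with no scaling to depth. Fold changes, p-values and q-values of their own comparison share that table and were not used. It holds 0 other columns of values per sample.

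Mean reads were scaled by the sum over the 5807 listed genes, because no library totals were analysed here. Means of at most 3 reads per library were set to 3 for counts of genes past a fold of 2 or 10. Few reads make a ratio imprecise. Gene models came from GENCODE M21 on GRCm38, an earlier release than the authors' own, and promoters from RefSeq. Every member is named, and from other cell cycle lists the 4 genes with the most marrow reads and up to 5 exceptions. Fewer genes are named from most marker lists. Members and lists were chosen with earlier results of these data known. Alternatives covered scaling, floor, filters and window. Scaling was checked on simulated data. Few genes changed in those data, so the check does not cover a comparison in which many genes differ, as here. Python 3.11.15, numpy 2.4.6, pandas 2.3.3, scipy 1.17.1 and matplotlib 3.10.9 were used.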

Additional observations from a re-analysis of the deposited data

How the results depend on the processing

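All 47 genes had fewer mean reads in pleural cavity eosinophils even without scaling. Against the scaling used, log2 ratios of every gene shift by 0.44 with no scaling, by -0.44 when scaled by the median ratio of listed genes that reached 1000 mean reads in each tissue, and by -0.16 when the 10 most abundant genes of each tissue were left out of the sum. The median log2 ratio of the 47 genes was then -4.24, -5.13 and -4.85, and it was -4.51 without the genes with fractional reads. The count at least 2-fold lower ranged from 44 to 47 over the 3 scalings, against 43.2% to 57.3% of all listed genes, and that at least 10-fold lower from 31 to 37, against 14.1% to 25.3%. A floor of 1 or 10 mean reads left both counts at 44 and 36. Without Hmgb2 the summed reads per 1000000 were 5931 in bone marrow and 614 in pleural cavity eosinophils. With a window of 100 bases, 28 of 40 genes had either kind of letters, against 31 with 250, and over all listed genes the share went from 51.6% to 31.3%. CHR letters were then found for 10 genes in place of 16, and both kinds for 8 in place of 14, counts that were added after the data were seen. Over all listed genes the share with CHR letters went from 18% to 6.42%, and that with both kinds from 7.51% to 2.03%. No paired analysis was possible because the deposited columns are means over the libraries of a tissue, which also prevented leaving out a replicate. The planned search for a degradation motif in the proteins was not run.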

Other observations

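Of 17 genes for CDK inhibitors and exit from the cycle 7 were listed, and in pleural cavity eosinophils 5 were higher and 2 lower, the median log2 ratio being 0.47. Of all listed genes 42.5% were higher. At least 2-fold higher was 1 of the 7, as were 930 of the 5807 listed genes. Btg2, an antiproliferative gene, had 15772 mean reads in bone marrow and 29696 in pleural cavity eosinophils, Ccng1 1294.5 and 2608, and Mdm2, the ubiquitin ligase that restrains p53, 1770 and 3206. The log2 ratio of Mdm2 turned from 0.42 to -0.03 when scaled by the median ratio of abundant listed genes, and that of Btg2 went from 0.47 to 0.03. Tob1 and Gadd45g were the lower ones, with log2 ratios of -0.96 and -1.07. Cdkn1a, which encodes the CDK inhibitor p21 and was named after its values were seen, had 625.5 and 4254.5 mean reads, 5.02-fold higher, and Cdkn1b, named likewise, 860 and 2028.5, 1.74-fold higher.

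Of 16 genes for the anaphase-promoting complex and its partners 4 were listed, with log2 ratios of 0.91 for Anapc2, 0.85 for Anapc11, -0.93 for Cdc27 and -1.67 for Ube2s. Ratios within 2-fold, of these genes and of the cohesin genes, may have another direction in the study's own comparison. Of 13 cohesin genes 6 were listed. Cdca5, which encodes the mitotic cohesin protector sororin, had a log2 ratio of -5.73, while Smc1a, Pds5a, Mau2 and Esco1 lay between -0.74 and 0.69. Esco2, the S phase acetyltransferase of cohesin and named after its values were seen, had 527 mean reads in bone marrow and 3.5 in pleural cavity eosinophils, a log2 ratio of -7.67, against 0.55 for its paralog Esco1, whose reads were fractional.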
